A study of Mus musculus with 8 samples.

Results

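The immediate early genes Fos, Fosb, Fosl2, Jun, Junb, Jund, Egr1, Ier2, Atf3 and Klf6 were followed in mouse bone marrow hematopoietic stem cells (HSCs) of 3 Nras genotypes. The 10 genes were chosen by name, and all their non-control probes were taken, 14 of the 41174 probes and 10 of the 27600 gene names on the array. The gene name given for each probe found 13 probes of 9 genes. The probe of Jund carries the older symbol Jund1 and was found through its accession. The samples were 2 of Nras+/+, with both alleles normal, 3 of NrasG12D/+, with 1 mutant allele, and 3 of NrasG12D/G12D, with both alleles mutant. The mutant allele was expressed from the endogenous Nras locus, and the G12D form of this small GTPase stays active and signals through the MAP kinases. All 8 samples came from bone marrow of strain B6. Total RNA of each sample was labelled with Cy3 and hybridised to 1 array. The sources used here do not give age, sex, how the mutant allele was brought about, or which surface markers the cells were isolated by. They do not say either whether the samples came from separate animals, so p-values measure the spread between these samples, which may be technical.

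Immediate early genes are switched on by growth factors, cytokines and stress without new protein synthesis. ERK and p38 signalling reaches them through serum response factor and its ETS-family partners, and Ras lies upstream of this route. Fos and Jun family proteins pair through leucine zippers to form AP-1, which binds DNA and activates or represses its targets. In blood stem cells, Egr1 is known for holding cells in quiescence and in their niche, and loss of Junb is known to lead to a myeloproliferative disease in mice.

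A probe was counted as detected on an array where most of its spots were well above background by the scanner software's test. Detection differed widely between the 10 genes. Junb and Fosl2 had a probe detected on all 8 arrays, as had 22.7% of all genes. Fos and Jun had no detected probe on any array, as had 34% of all genes. Fosb was detected on 7 arrays, Klf6 on 6, Jund on 5, Egr1 and Atf3 on 2 each and Ier2 on 1. By array, 3 to 7 of the 10 genes were detected: in the order of the replicates, 5 and 3 in Nras+/+, 5, 7 and 5 in NrasG12D/+ and 5, 5 and 4 in NrasG12D/G12D. Over all genes the share detected ran from 34% on NrasG12D/G12D replicate 2 to 52% on NrasG12D/+ replicate 2, which were the arrays with 5 and 7 of these genes.

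**Figure D1:**
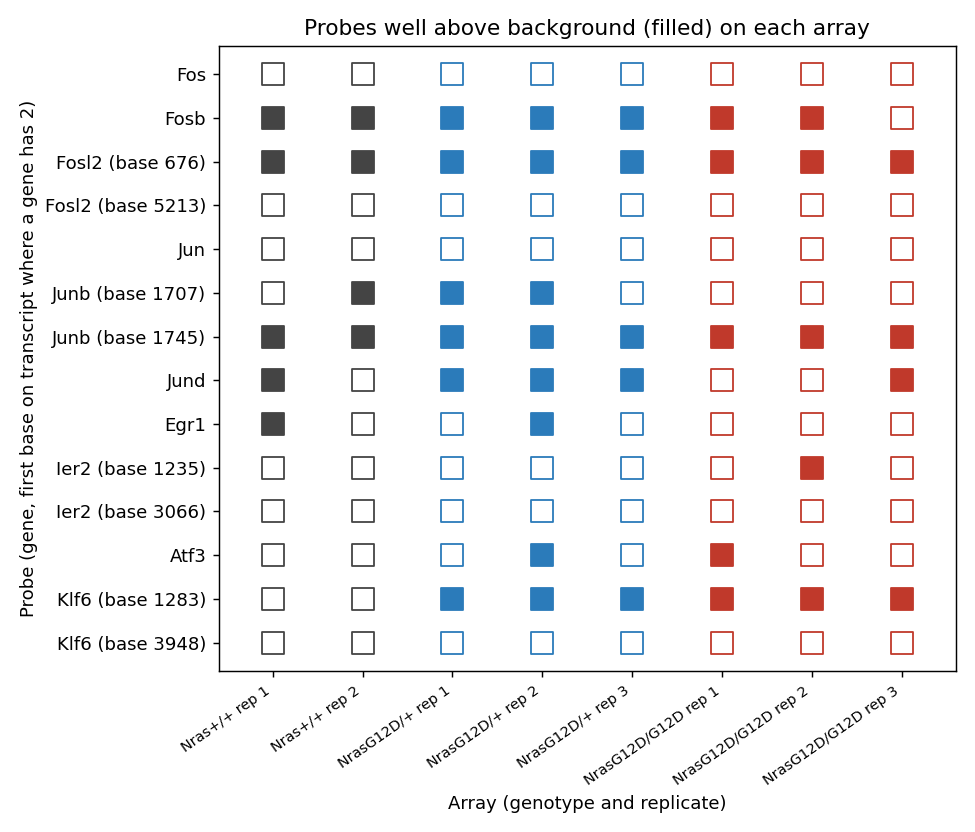
Each row is a probe of the 10 genes, each column an array, and a filled square marks a probe well above background there (dark grey, Nras+/+; blue, NrasG12D/+; red, NrasG12D/G12D). The upstream Klf6 probe is filled on the 6 mutant arrays and on neither Nras+/+ array, and 5 of the 14 probes are open on all 8 arrays.

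For 4 genes the array holds 2 probes, and the probes of a gene were not detected alike. Each probe is 60 bases long. The stretches below, 30 bases of each and 5′ to 3′, are shown so that the probes of a gene, which were read differently, can be set side by side. Positions on the transcript, given as the probe's first base, and positions in the genome are those in the files, which state no genome build. Whether they lie in coding or untranslated sequence was not analysed here. In the Junb pair the capitals mark 22 bases held by both probes.
Junb, probe from base 1707 (chr8:87867087-87867146, minus strand): acacgcacTTCGTGTCTAAAGTCTATTTTA
Junb, probe from base 1745 (chr8:87867049-87867108, minus strand): TTCGTGTCTAAAGTCTATTTTAagatgtgt
Fosl2, probe from base 676 (chr5:32429296-32429355, plus strand): gattgctgagctgcagaaggagaaggagaa
Fosl2, probe from base 5213 (chr5:32433832-32433891, plus strand): ttgaggaagaaaatattcagctttgtataa
Klf6, probe from base 1283 (chr13:5866706-5866765, plus strand): atagcacccatggtgcatggtgtttgggtg
Klf6, probe from base 3948 (chr13:5869371-5869430, plus strand): tttaatactaagcagtccattctggtcagg
Jund, its only probe (chr8:73629526-73629585, plus strand): ttttgctacgagtccacattcctgttccgt
Fos, its only probe (chr12:86366053-86366112, plus strand): ggactttattttccagtagatagaaatcaa
Jun, its only probe (chr4:94541191-94541250, minus strand): tttataatcataggaaagatttagtaatta

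Although the Junb probes overlap by 22 bases, the probe from base 1745 was detected on all 8 arrays and the probe from base 1707 on 3, Nras+/+ replicate 2 and NrasG12D/+ replicates 1 and 2. The upstream Fosl2 probe was detected on 8 arrays and the downstream one on none. For Klf6 the upstream probe was detected on 6 arrays and the downstream one on none. Ier2, which codes for a short-lived nuclear protein, had its probe from base 1235 detected on NrasG12D/G12D replicate 2 alone and its probe from base 3066 on no array. On that array the first probe read 58.9 units, against 3.72 to 11.6 on the other 7 arrays. Here and below a level is the processed signal scaled to each array's 75th percentile, in linear units.

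Of these genes 7 could be tested, since a probe had to be detected on at least 2 arrays (Fosb, Fosl2, Junb, Jund, Egr1, Atf3 and Klf6). A gene that passed only because it is bright in 1 genotype is favoured by such a filter, so counts over the 7 describe these genes and support no statement on all 10. Detection on an array depends on its background: the lowest signal well above background was 5.53 to 15 units across the arrays. NrasG12D/+ replicate 1 resembled the other arrays least, with a mean correlation of 0.564 across 15099 genes, while the other 7 arrays lay between 0.627 and 0.642. Genes are not independent replicates. For Jund and Klf6, whose highest NrasG12D/+ value came from this array, changes are also given without it.

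None of the 7 genes passed the test in any comparison of genotypes (limma, adjusted p by Benjamini-Hochberg over all genes, threshold 0.05). The same was true of all genes: 0% of 15070 genes were called for NrasG12D/+ and 0% of 15017 for NrasG12D/G12D, each against Nras+/+, and 0% of 15023 between the mutants. At an unadjusted p under 0.05 the shares of all genes were 4.7%, 6.47% and 5.94% (708, 972 and 893 genes), and 0 of the 7 genes were among them. In NrasG12D/+ against Nras+/+, 3 of the 7 had a higher mean and the median log2 change was -0.03, beside -0.26 over all genes tested. With the percentile over all probes, median scaling and the deposited value table, 5 of the 7 were higher, with medians of 0.14, 0.25 and 0.16. The medians over all genes moved with them, to -0.09, 0.02 and -0.08, and the members' median stayed 0.23 above that of all genes. In NrasG12D/G12D against Nras+/+, 4 of the 7 had a higher mean and the median was 0.45, beside -0.44. With normexp background correction 2 of the 7 were higher, with a median of -0.12 beside -0.27. Between the mutant genotypes 3 of the 7 were higher in NrasG12D/G12D, with a median of -0.49 beside -0.20. With normexp 4 of the 7 were, with a median of 0.17 beside 0.11. The share of all genes with a higher mean is not given here, and their medians in the main fit were below 0 in each comparison. The first and second comparisons share the Nras+/+ arrays, and the third shares arrays with both.

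**Figure D2:**
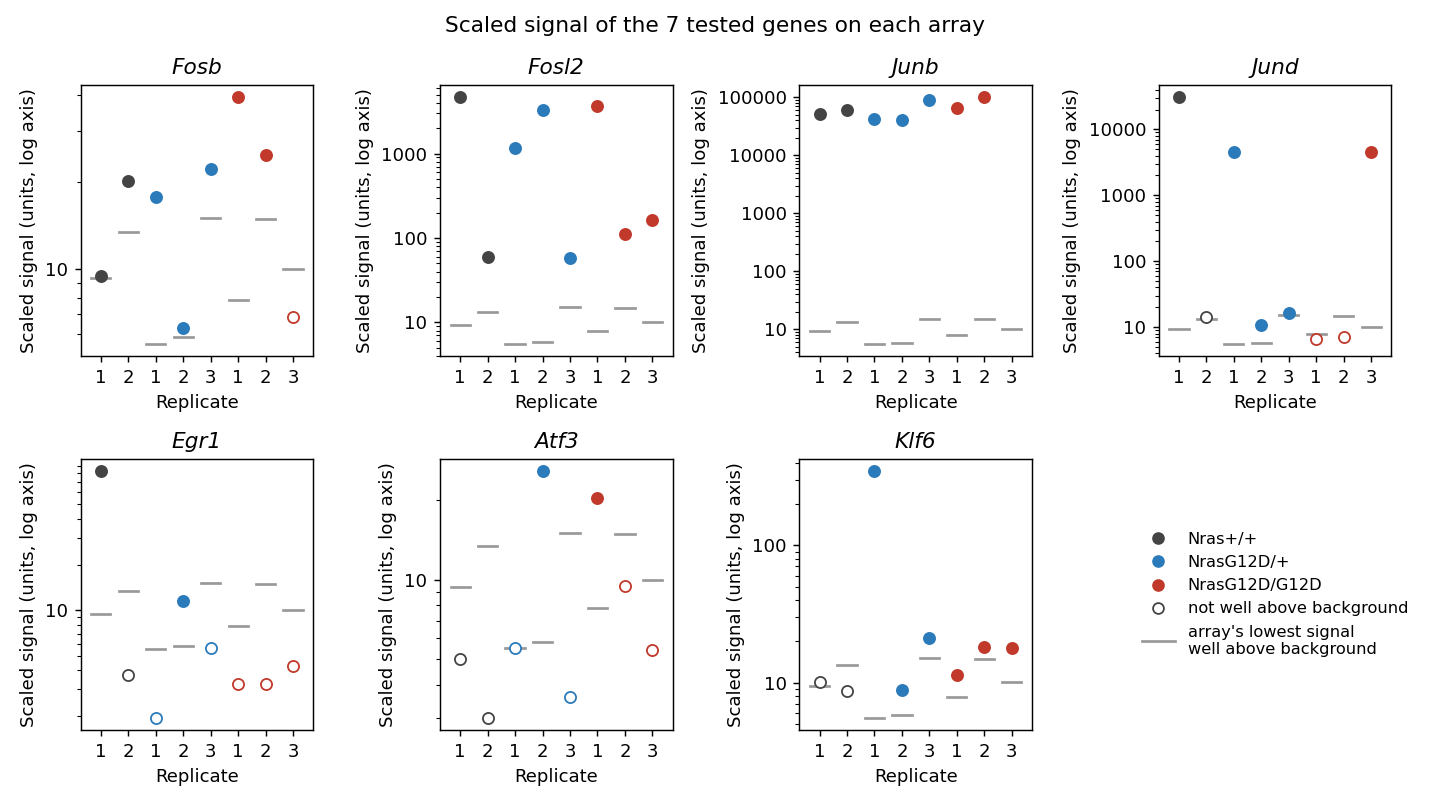
The scaled signal of the 7 tested genes (log axis, units) is plotted for each replicate, with open points where the probe was not well above background and a grey bar at the array's lowest signal well above background. Fosl2 and Jund fall into high and low arrays within genotypes, whereas Junb stays between 40549 and 100640 units on the 7 arrays with a value.

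Among the Fos family, Fosb codes for a protein that pairs with Jun proteins as Fos does. It read 9.46 and 20.1 units in Nras+/+, 17.8, 6.30 and 22.1 in NrasG12D/+, and 39.2, 24.8 and 6.83 in NrasG12D/G12D, where the last value was not well above background. The genotypes overlapped, with the highest and the second lowest value both in NrasG12D/G12D. Fosb differed from Nras+/+ by a log2 change of -0.03 (SE 0.98) in NrasG12D/+ and 0.45 (SE 0.98) in NrasG12D/G12D, adjusted p = 0.994 and 0.903. The first of these turned positive under 3 other scalings and in the deposited value table.

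Fosl2 codes for a Fos-related protein that lacks the strong activation region of Fos. Its upstream probe read 4645 and 59.1 units in Nras+/+, 1155, 3252 and 57.9 in NrasG12D/+, and 3680, 112 and 161 in NrasG12D/G12D. Each genotype thus held at least 1 array at 1155 units or more and at least 1 at 161 or less, with no level between. That split was noticed after the values were seen. The 2 Nras+/+ arrays differed 78.6-fold. The SD between arrays of a genotype was 3.27 on the log2 scale, at the 97.1st percentile of 15080 genes, whose median SD was 1.06. The log2 change was 0.20 (SE 2.32) in NrasG12D/+ and -0.37 (SE 2.32) in NrasG12D/G12D against Nras+/+, adjusted p = 0.986 and 0.97, and each changed sign under at least 1 other scaling. Leaving out Nras+/+ replicate 1 gave 3.35 and 2.78, and leaving out replicate 2 gave -2.95 and -3.52.

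Fos itself, the partner of Jun in the best known AP-1 dimer, is printed in 10 spots on each array. None of its 80 spots was well above background. The spots read between 1.63 and 5.82 units before scaling, and their SD within an array was 0.09 to 0.53 on the log2 scale. Scaled, Fos read 2 and 3.33 units in Nras+/+, 1.52, 1.46 and 3.31 in NrasG12D/+ and 1.76, 3.35 and 2.22 in NrasG12D/G12D. These levels are below the lowest detectable signal of every array and carry no order. They do not show that the transcript was absent. Of the 245 probes printed 10 times, 49 were detected on all arrays and 92 on none.

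In the Jun family, Jun was likewise printed 10 times, and 4 of its 80 spots were well above background. All 4 were on Nras+/+ replicate 1, where the 10 spots ran from 2.12 to 13.2 units, a wider spread (SD 0.77 on the log2 scale) than on any other array. On the other 7 arrays no spot was detected and single spots read 1.67 to 8.24 units. Scaled, Jun read 7.43 and 3.43 units in Nras+/+, 1.21, 1.65 and 4.59 in NrasG12D/+ and 1.95, 3.17 and 5.87 in NrasG12D/G12D.

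Junb, which opposes Jun on many promoters and restrains the cell cycle, was the steadiest of the 7 tested genes. Its probe from base 1745 read 52145 and 59595 units in Nras+/+, 41867, 40549 and 90703 in NrasG12D/+, and 66415 and 100640 in NrasG12D/G12D replicates 1 and 2. The spot on replicate 3 was bright, at 55000 units before scaling, but flagged as non-uniform, so it was dropped from the fit. The SD within genotype was 0.52 on the log2 scale, at the 7.55th percentile of all genes, and the Nras+/+ arrays differed 1.14-fold. Levels in NrasG12D/+ fell on both sides of those in Nras+/+. Both NrasG12D/G12D values left in lay above the Nras+/+ values, with 1 of them below the highest NrasG12D/+ value. This order leaves out the dropped spot, with which the log2 change against Nras+/+ was 0.34 instead of 0.55.

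The log2 change of Junb was -0.06 (SE 0.75, 95% interval -1.80 to 1.68) in NrasG12D/+ and 0.55 (SE 0.82, -1.35 to 2.46) in NrasG12D/G12D against Nras+/+, adjusted p = 0.988 and 0.858. The sign in NrasG12D/+ turned under 2 other scalings, normexp background correction and the deposited value table. Between the mutant genotypes the change was 0.61 (SE 0.75), adjusted p = 0.901. With the flagged spot kept the 2 changes that use NrasG12D/G12D were 0.34 and 0.38. The second Junb probe, detected on 3 arrays, read 2.39 and 41.2 units in Nras+/+, 20, 13.4 and 4.13 in NrasG12D/+ and 1.97, 3.84 and 2.54 in NrasG12D/G12D, so it was high on the arrays that detected it and low elsewhere.

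Jund, the Jun family member usually present in resting cells, varied most. It read 30698 units on Nras+/+ replicate 1 and 14 on replicate 2, which was not well above background. The NrasG12D/+ arrays read 4570, 10.9 and 16.4 units, and those of NrasG12D/G12D read 6.66, 7.16 and 4504, with the first and second not well above background. An array of each genotype was therefore at 4504 units or more, and the other 5 arrays were at 16.4 or less. The Nras+/+ arrays read 2188-fold apart, and the reading of replicate 2 was not well above background. Over all genes, 4% of 15012 read more than 4 apart on the log2 scale between these arrays, Fosl2 and Egr1 among them, whether or not both readings were well above background. The SD within genotype was 5.78 on the log2 scale, at the 99.8th percentile.

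The fitted log2 changes of Jund were -2.81 (SE 4.01) and -3.45 (SE 4.01) against Nras+/+ and -0.64 (SE 3.58) between the mutant genotypes, adjusted p = 0.864, 0.816 and 0.984. The interval of the first ran from -11.89 to 6.27. Without Nras+/+ replicate 1 the changes against Nras+/+ became 2.74 and 2.09, and without replicate 2 they became -8.36 and -9.00. Without NrasG12D/+ replicate 1 the change was -5.62 in NrasG12D/+ against Nras+/+ and 2.16 between the mutant genotypes. The array holds 1 spot for Jund, so its readings have no repeat within an array.

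**Figure D3:**
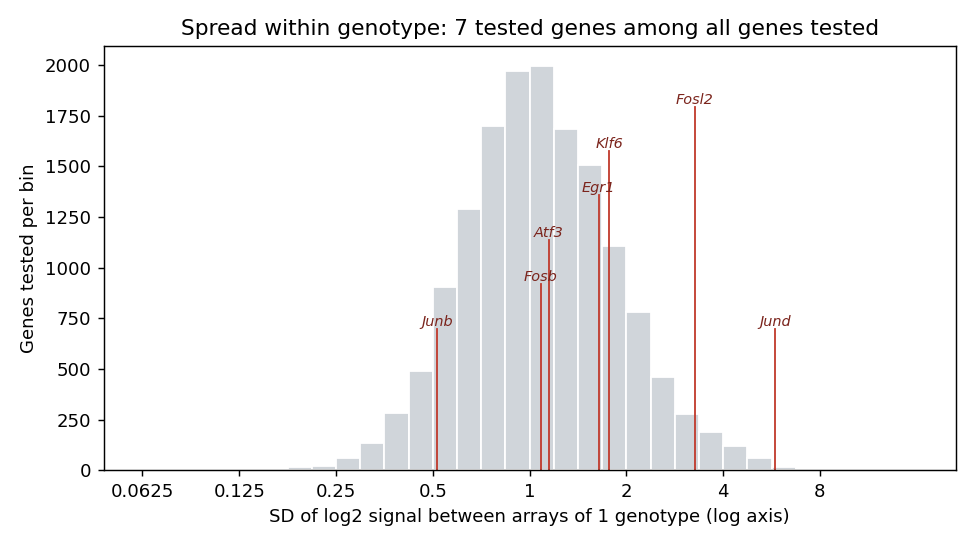
The histogram counts all genes tested by their SD of log2 signal between arrays of 1 genotype (log axis), and red lines, whose height has no meaning, mark the 7 tested immediate early genes. Junb lies at an SD of 0.52, left of the peak, and Fosl2 and Jund at 3.27 and 5.78 lie in the right tail.

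Egr1, a zinc finger factor induced through serum response factor, was detected on Nras+/+ replicate 1 and NrasG12D/+ replicate 2. It read 82.8 and 3.73 units in Nras+/+, 1.94, 11.5 and 5.58 in NrasG12D/+, and 3.23, 3.24 and 4.26 in NrasG12D/G12D. The highest array belonged to Nras+/+ and the other Nras+/+ array lay within the range of the mutant arrays, so the genotypes overlapped. The log2 change was -1.82 (SE 1.29) in NrasG12D/+ and -2.31 (SE 1.29) in NrasG12D/G12D, adjusted p = 0.812 and 0.726. Since no NrasG12D/G12D array detected it, a bound was computed for the second, at 1.67-fold lower. For such a bound, each array of the dim group is given its lowest signal well above background wherever the probe reads below that, and the bright group's mean is set against the mean of these. A bound of this kind takes no account of the spread between arrays. It is not strict either, since a probe can read above its array's lowest signal well above background and still be undetected. Without Nras+/+ replicate 1 these changes were 0.42 and -0.07, so their size rests on that array.

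Atf3, a stress-induced relative of the AP-1 proteins, was detected on NrasG12D/+ replicate 2 and NrasG12D/G12D replicate 1. It read 5.02 and 3.01 units in Nras+/+, 5.53, 25.8 and 3.61 in NrasG12D/+, and 20.5, 9.48 and 5.43 in NrasG12D/G12D. All 3 NrasG12D/G12D values lay above both Nras+/+ values, though only 1 of the 5 was well above background. The log2 change was 1.04 (SE 1.01) in NrasG12D/+ and 1.39 (SE 1.01) in NrasG12D/G12D, adjusted p = 0.822 and 0.75. Neither Nras+/+ array detected Atf3, and the mutant means did not exceed the lowest detectable signals there, so no bound on the fold can be given. With normexp background correction both turned negative, -0.32 and -0.12.

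Klf6, a zinc finger factor of the Kruppel-like family, had the pattern of detection that followed genotype. Its upstream probe was well above background on all 6 mutant arrays and on neither Nras+/+ array, a pattern that 23 of 15099 genes, or 0.152%, shared. The pattern was singled out after the values were seen. The levels were 10.2 and 8.75 units in Nras+/+, 347, 8.88 and 20.9 in NrasG12D/+, and 11.3, 18.1 and 17.8 in NrasG12D/G12D. The detected level of 8.88 units on NrasG12D/+ replicate 2 lay below the undetected 10.2 units on Nras+/+ replicate 1. The lowest signal well above background was 5.83 units on the first of these arrays and 9.36 on the second. Klf6 read above that lowest signal on Nras+/+ replicate 1 and was still not detected, so the lowest signal is no cutoff for each probe. Detection of Klf6 therefore did not follow its level alone.

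Klf6 differed from Nras+/+ by a log2 change of 2.09 (SE 1.37, 95% interval -1.01 to 5.18) in NrasG12D/+, adjusted p = 0.812. In NrasG12D/G12D the change was 0.71 (SE 1.37, -2.39 to 3.80), adjusted p = 0.892. Since neither Nras+/+ array detected it, bounds were computed as for Egr1, at 3.43-fold and 1.32-fold higher. They leave out the spread between arrays and are not strict, as the lowest signal was no cutoff for Klf6. The larger change and its bound rest on NrasG12D/+ replicate 1, the array least like the others. Without that array the change was 0.53, and the bound was not recomputed. The change between the mutant genotypes went from -1.38 to 0.18. In NrasG12D/G12D all 3 values lay above both Nras+/+ values, but with normexp background correction the change was -0.09. The other Klf6 probe was detected nowhere. It read 4.39 and 5.03 units in Nras+/+, 1.32, 1.38 and 3.53 in NrasG12D/+ and 3.76, 3.50 and 2.28 in NrasG12D/G12D. Both Nras+/+ readings lay above all mutant readings, the opposite order to the upstream probe in NrasG12D/G12D. All were below the lowest signal well above background of their arrays.

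**Figure D4:**
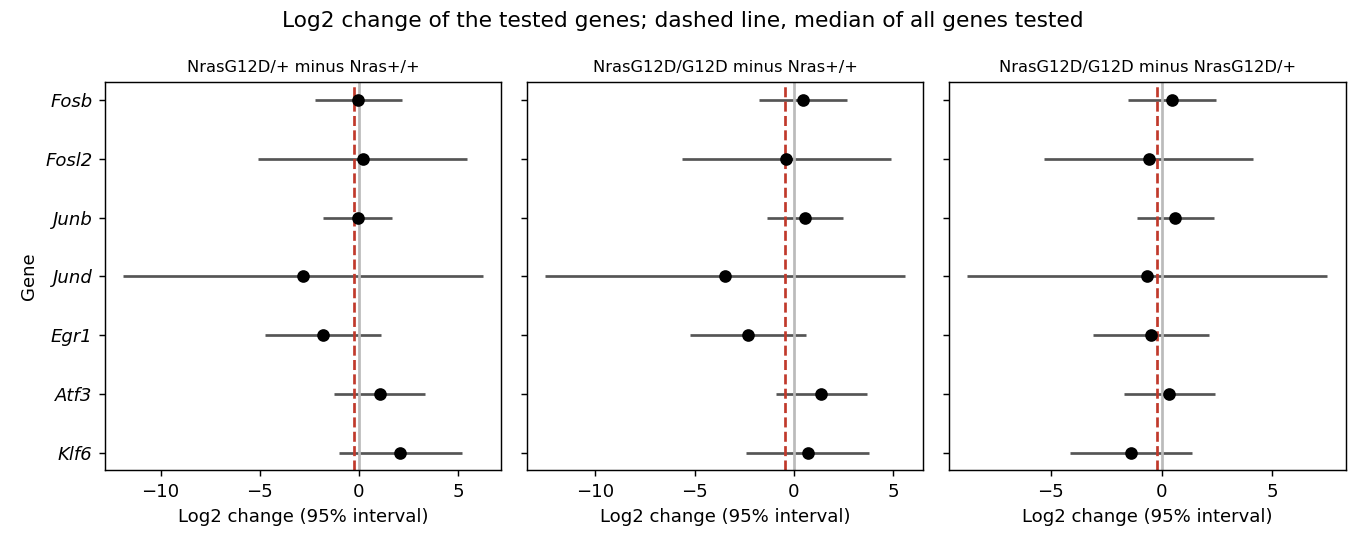
Points give the log2 change of the 7 tested genes in each of the 3 comparisons, horizontal lines the 95% interval from limma, and the dashed line the median of all genes tested. Every interval spans 0, from the narrow ones of Junb to those of Jund, which run from -12.54 to 5.63 in NrasG12D/G12D against Nras+/+.

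By their tested probes, Atf3 and Klf6 were the members whose Nras+/+ and NrasG12D/G12D values did not overlap, 2 of the 6 with a value on all arrays compared. Over all genes 28.4% of 14692 did not overlap in that comparison. By tested probe, none separated in NrasG12D/+ against Nras+/+, where 25% of 14944 genes did, or between the mutant genotypes, where 11.5% of 14688 did. Of the other probes, the second Junb probe read lower on every NrasG12D/G12D array, where it was not detected, than on every NrasG12D/+ array. The second Klf6 probe, detected nowhere, read lower in both mutant genotypes than in Nras+/+. The 2 of 6 is near the share of all genes and is no result about these genes.

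Slide and genotype could be separated in part. Both Nras+/+ arrays and NrasG12D/+ replicates 1 and 2 were on slide 1, and the other 4 arrays were on slide 2. Within slide 1, with 2 Nras+/+ against 2 NrasG12D/+ arrays, the 7 changes kept their signs, at -0.38 for Fosb, 1.89 for Fosl2, -0.44 for Junb, -1.56 for Jund, -1.90 for Egr1, 1.62 for Atf3 and 2.56 for Klf6. Within slide 2 a single NrasG12D/+ array stood against 3 NrasG12D/G12D arrays. There Fosb (-0.24), Junb (-0.15), Jund (1.87) and Fosl2 (2.81) had the opposite sign to the value over all arrays, and Egr1 (-0.65), Atf3 (1.49) and Klf6 (-0.44) the same sign. None of these passed the test. No slide held both Nras+/+ and NrasG12D/G12D, and no value within a slide can be had for them. With the slide as a block the change is linked through the NrasG12D/+ arrays, and was 3.11 for Atf3, 2.12 for Klf6, -2.55 for Egr1, 4.69 for Fosl2, 0.31 for Jund, -0.62 for Fosb and -0.59 for Junb. In bulk RNA, fewer cells of a type and less RNA per cell cannot be told apart.

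Junb and Fosl2, the genes detected on all arrays, formed the 1 pair for which a correlation was computed. Over the 7 arrays with both values Pearson's r was -0.66 (exact permutation p = 0.126, two-sided) and Spearman's rho was -0.46 (exact permutation p = 0.302), with adjusted values equal to these for 1 pair. Without the 2 arrays farthest from the median of Junb, r was -0.23, and with quantile normalization over all 7 it was 0.28. No relation between them held over these settings. Of genes detected on all arrays, those with levels most like Junb over 7 arrays were Cacfd1, the probe named NAP055718-1 and Srpk2 (r = 0.99, 0.97 and 0.97 of 5669 genes). Most like Fosl2 over 8 arrays were Afg3l1, Cyp2d12 and Fem1a (r = 0.98, 0.95 and 0.93 of 5636 genes). These are descriptions of the highest of many correlations over few arrays and carry no test.

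The lists of related genes gave no call either. In the other AP-1 family genes (Batf, Maf and Atf factors with leucine zippers), 11 of 13 were detected on at least 1 array and 10 were tested. The median log2 change was -0.69 in NrasG12D/+ and -0.27 in NrasG12D/G12D, beside -0.26 and -0.44 over all genes. The lowest unadjusted p belonged to Atf4, a factor of the integrated stress response. It read 22.5 and 35.1 units in Nras+/+, 12.7, 14.7 and 15.5 in NrasG12D/+ and 4.32, 10.6 and 6.09 in NrasG12D/G12D, where no array was well above background. The 15.5 units on NrasG12D/+ replicate 3 were not well above background either. The 3 genotypes did not overlap. Over all genes 25%, 28.4% and 11.5% did not overlap in the 3 comparisons taken singly, and the share in all of them at once was not counted. The log2 change of -2.10 (SE 0.71) in NrasG12D/G12D, with a bound of 2.67-fold lower, had an unadjusted p of 0.0163 and an adjusted p of 0.726. Atf7, a related factor, had changes of -1.57 (SE 0.76) and -1.50 (SE 0.76), adjusted p = 0.812 and 0.726. In NrasG12D/+ the next in order were Batf2 and Atf2, at -1.40 (SE 0.83) and -1.08 (SE 0.76). In NrasG12D/G12D the next was Mafg, which was higher, at 1.91 (SE 1.13, adjusted p = 0.73). Of the 10 tested, 3 had a higher mean in NrasG12D/+ and 4 in NrasG12D/G12D, each against Nras+/+. Between the mutant genotypes 6 were higher in NrasG12D/G12D, among them Jdp2 at 1.74 (SE 1.26, adjusted p = 0.839).

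Of the other EGR genes and their co-repressors Nab1 and Nab2, 4 of 5 were tested and none was called. Egr4 read 15.3 and 22.8 units in Nras+/+, 1.86, 2.18 and 5.58 in NrasG12D/+ and 2.02, 8.91 and 10.8 in NrasG12D/G12D. Both Nras+/+ arrays lay above all 6 mutant arrays, of which 1 was well above background. Over all genes 25% and 28.4% did not overlap with Nras+/+ in NrasG12D/+ and NrasG12D/G12D, each taken singly. The log2 change in NrasG12D/+ was -2.73 (SE 0.94, unadjusted p = 0.0179, adjusted p = 0.812), with a bound of 2.38-fold lower. In NrasG12D/G12D it was -1.69 (SE 0.94, adjusted p = 0.726). Nab1, which binds EGR proteins and dampens them, had -1.57 (SE 1.02) and -1.04 (SE 1.02). Egr3 stood out on a single array, with 284 units on NrasG12D/+ replicate 1 against 3.20 to 11.9 on the other 7. Its log2 change in NrasG12D/+ against Nras+/+ was 1.72 (SE 1.63, adjusted p = 0.819), and -0.18 without that array.

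Of 30 other immediate early genes, 29 were on the array, 24 were detected on at least 1 array, 6 on all and 20 were tested. Their median log2 change was 0.20 in NrasG12D/+ and -0.31 in NrasG12D/G12D, each against Nras+/+, and -0.39 between the mutants. Id1, an inhibitor of helix-loop-helix factors, was detected on NrasG12D/+ replicates 1 and 2 alone, at 17.2 and 14.2 units against 1.96 to 3.99 on the other 6 arrays. Its change between the mutant genotypes was -1.91 (SE 0.76, unadjusted p = 0.0329, adjusted p = 0.802), and since no NrasG12D/G12D array detected it and the NrasG12D/+ mean was under the lowest detectable signals there, no bound on the fold can be given. Without NrasG12D/+ replicate 1 the change was -1.51. Gadd45b, a stress-response gene, read 192 units on NrasG12D/G12D replicate 3 and 1.99 to 30.4 elsewhere. Zfp36l1, which promotes decay of AU-rich mRNAs, had a log2 change of -1.53 (SE 0.88) in both mutant genotypes, adjusted p = 0.812 and 0.728. In NrasG12D/G12D, where no array detected it, the bound was 1.33-fold lower.

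Upstream of these genes, 12 of 14 regulators were detected on at least 1 array and 7 were tested, none of them called. Srf, the serum response factor, was detected on all 8 arrays. It read 167 and 533 units in Nras+/+, 183, 996 and 689 in NrasG12D/+ and 316, 267 and 160 in NrasG12D/G12D. The genotypes overlapped, and the change between the mutant genotypes was -1.07 (SE 0.84, adjusted p = 0.848). Elk3, an ETS partner of serum response factor, had 2.30 (SE 1.1) in NrasG12D/+, with a bound of 1.04-fold higher, adjusted p = 0.812. Mrtfa, a coactivator of serum response factor listed by its former symbol Mkl1, had -1.72 (SE 1.05) in NrasG12D/+ and -1.37 (SE 1.05) in NrasG12D/G12D, adjusted p = 0.812 and 0.756.

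Heat shock and cell handling genes were measured beside them. Of 10, 9 were on the array and 6 were tested, with median changes of -0.67, -0.35 and -0.06 in the 3 comparisons. Hspb1, a small heat shock protein, read 87.6 and 66.3 units in Nras+/+, 39.1, 29.5 and 47.2 in NrasG12D/+ and 72.6, 99.8 and 141 in NrasG12D/G12D. The mutant genotypes did not overlap, as in 11.5% of 14688 genes (log2 change 1.41, SE 0.62, unadjusted p = 0.0482, adjusted p = 0.802). Hspa8, the constitutive HSP70, had -1.11 (SE 0.79) in NrasG12D/+. The part of these genes in the levels above was not tested.

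The cell type label was checked against markers. Of 15 HSC markers, 6 to 11 were detected per array. Among those detected on all 8 arrays were Ly6a, Slamf1, Fgd5 and Mllt3, and Procr, Tek and Gata2 were detected on none. The summed level of the HSC list ran from 1516 to 1720 units in Nras+/+, from 594 to 1369 in NrasG12D/+ and from 682 to 978 in NrasG12D/G12D. The 9 tested HSC markers had median log2 changes of -0.67 and -0.58 against Nras+/+, beside -0.26 and -0.44 over all genes. Of the 9, 0 and 1 had a higher mean, and 0 were called. Lower means were common over all genes too, whose medians were below 0, and the share of all genes with a higher mean is not given here. Markers of other cells were detected too. Of 8 B cell markers 4 to 6 were, with Ms4a1, Vpreb1 and Igll1 among those on every array, and Cd79a and Ebf1 on none. Of 8 T and NK cell markers 2 to 5 were, of 8 neutrophil markers 2 to 5, of 7 monocyte and macrophage markers 2 to 6, of 7 erythroid markers 2 to 5 and of 6 megakaryocyte markers 3. The summed level of the neutrophil list ran from 256 to 285 units in Nras+/+, from 229 to 45645 in NrasG12D/+ and from 121 to 2122 in NrasG12D/G12D, with Camp and S100a8 detected on no array. The 6 tested neutrophil markers had median log2 changes of -0.62 and -0.88 against Nras+/+, with 2 and 1 of them higher. Which markers made up the highest sums was not analysed. The part of such cells in the levels of the immediate early genes was not tested.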

How the data were processed

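Expression was measured on 8 Agilent 1-colour arrays. Per the file headers, the deposited processed signal is an intensity from Agilent Feature Extraction 10.5.1.1, with background subtraction and detrending inside each array and no scaling across them. Mean and local background signals, used for normexp, are deposited intensities too. The deposited value table holds a ratio, the processed signal over its array's median (largest relative deviation 1.7e-06). Flags of 0 or 1 (well above background, outlier) are, per the file headers, scores of the same software.

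Outlier-flagged spots were dropped, log2 signals were averaged per probe, and each array's 75th percentile was subtracted, taken from the 6576 probes detected (well above background) on all 8 arrays. Linear units set this percentile to its mean on the log2 scale over the arrays. The brightest probe per gene was tested if detected on at least 2 arrays (15099 genes), with limma 3.58.1 in R 4.3.3 (1 spread for 3 groups, two-sided, 5 residual and 3.90 prior degrees of freedom). The fit was tested on simulated data. Precision is limited by the number of arrays, with a median SE of 0.87 to 0.97 on the log2 scale. Genes were named through a RefSeq table of GRCm38.p6, or by the name in the file.

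The members and lists were chosen with earlier results of these data known. Named were all members with every probe, up to 3 tested genes of lowest p per related list and comparison, and the 3 genes most like each member detected on all arrays. Alternatives were other scalings, background correction, filters, probes, slide or replicate blocks and leaving out arrays. Same-numbered arrays did not deviate together (correlations -0.09 to 0.08), so the numbers only name samples. Some marker genes are not reported here by name, though counts include them.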

Additional observations from a re-analysis of the deposited data

How the results depend on the processing

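No change of the 7 tested genes passed the threshold under any alternative run. Of 251 alternative values, 222 kept their direction and 29 turned, and of 112 with 1 array left out, 84 kept it and 28 turned. The 222 include values that could not turn. Runs with no filter, each probe by itself, only the groups compared or probes detected on all arrays left each change as it was. They altered only its SE and p. Counts of genes called over the whole array were 0 in each comparison. They became 1 in NrasG12D/+ against Nras+/+ with the percentile over all probes, quantile normalization, the value table or no filter. In NrasG12D/G12D against Nras+/+ they became 1 with quantile normalization, no filter, a slide block or only the groups compared, and 4 between the mutant genotypes with the slide block. With 1 array left out they ran from 0 to 10, 0 to 9 and 0 to 2, highest without Nras+/+ replicate 2 (10 and 9), whose lone partner is assumed to vary like the other groups. The cause was not tested.

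In NrasG12D/+ against Nras+/+, values that turned were 0.14 (percentile over all probes), 0.25 (median), 0.15 (quantile) and 0.16 (value table) for Fosb, 0.11, 0.22, 0.064 (normexp) and 0.13 (value table) for Junb, -0.20 (quantile) for Fosl2 and -0.32 (normexp) for Atf3. In NrasG12D/G12D against Nras+/+, they were 0.12 (percentile over all probes) and 0.26 (value table) for Fosl2, and with normexp -0.090 for Klf6 and -0.12 for Atf3. A slide block gave -0.62 for Fosb, -0.59 for Junb, 0.31 for Jund and 4.69 for Fosl2. Between the mutant genotypes, the slide block and slide 2 alone both gave -0.24 for Fosb, -0.15 for Junb, 1.87 for Jund and 2.81 for Fosl2, and normexp gave 0.17 for Egr1. The correlation of Junb and Fosl2 turned to 0.28 with quantile normalization. The median change of all genes moved from -0.26 to 0.02 with median scaling in the first comparison and from -0.44 to 0.19 with the value table in the second.

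Pairing arrays by replicate number, as a replicate block, turned 2 values, 0.16 for Fosb in NrasG12D/+ and 0.80 for Fosl2 in NrasG12D/G12D against Nras+/+, and called 0 genes in each comparison.

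With 1 array left out, changes that turned at least once ran in NrasG12D/+ against Nras+/+ from -0.57 to 0.53 for Fosb, -0.44 to 0.14 for Junb, -8.36 to 2.74 for Jund, -4.05 to 0.42 for Egr1 and -2.95 to 3.35 for Fosl2. In NrasG12D/G12D against Nras+/+ they ran from -0.10 to 1.18 for Fosb, -9.00 to 2.09 for Jund and -3.52 to 2.78 for Fosl2. Between the mutant genotypes they ran from -0.078 to 1.20 for Fosb, -3.76 to 2.16 for Jund, -1.17 to 0.11 for Egr1, -2.47 to 0.18 for Klf6, -2.26 to 0.65 for Fosl2 and -0.23 to 1.19 for Atf3.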

Other observations

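Probes of a transcript that lie apart often differed in detection, as those of Fosl2 and Klf6 did. Among 2632 transcripts with 2 probes at least 500 bases apart and at least 1 of them well above background somewhere, the upstream probe was detected on more arrays in 51.9%, the downstream probe in 40.7%, and both on the same number of arrays in 7.37%. Probes with 10 spots and detection on all arrays had a median SD of 0.15 on the log2 scale between the spots of an array and of 0.90 between the arrays of a genotype.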
